A study of Arabidopsis thaliana with 6 samples.

Results

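On Chr. 2, 433 genes had nearly the same scaled level in leaves of the aneuploid mutant *flpl1* as in the wild type Col-0, although the study's chromosome model gives the mutant an additional Chr. 2. The genes were chosen on the RNA-seq counts themselves. Each count was divided by the sum of the counts on the genes of Chr. 1, 3, 4 and 5 of its library and multiplied by 1000000 (CPM). A Chr. 2 gene was taken if its mean CPM was at least 5 in Col-0 and if its mean CPM in *flpl1* was 0.85 to 1.15 times the mean in Col-0. The deposited tables list 32243 genes, 5288 of them on Chr. 2, and 2140 of these reached the CPM minimum. The members were 20.2% of those 2140 genes, while 498 genes (23.3%) lay below the window and 1209 (56.5%) above it. The libraries came from 3 plants of *flpl1* (C30-81-as6), a late-flowering line with petioleless leaves derived from Col-0 seeds irradiated with carbon ions, and from 3 Col-0 plants of the same age. Fully mature leaves were sequenced, with 1 plant per library. The *flpl1* plants belong to 1 mutant line, which in the study's model also carries a translocation between Chr. 1 and Chr. 2 and further mutations, so the effects of the additional chromosome and of these mutations cannot be told apart. Since *flpl1* flowers later than Col-0, plants of the same age may have been at different developmental stages. Stage cannot be told apart from genotype either.

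In a plant with an additional chromosome, a gene on that chromosome is present in 3 copies in place of 2, and a transcript level that follows the copy number is 1.5 times that of the diploid. A gene that stays at the diploid level in spite of the additional copy is called dosage compensated. Genes on the other chromosomes can also change in an aneuploid, which is known as a trans effect, and dosage sensitivity is often discussed for regulators and for subunits of protein complexes.

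Similar neighbours of members were outside the window about as often as expressed Chr. 2 genes in general. Of the members, 16 had a Chr. 2 gene outside the window that lay within 5 expressed genes and aligned to them in a nucleotide BLAST search over at least 300 bp, which gave 17 pairs. Counted from each member, 17 of 21 such neighbours (81.0%) were outside and 4 inside, against 79.8% outside over all expressed Chr. 2 genes. The 250 bases before the gene start are printed for the 3 pairs of the highest identity, so that the promoters of a member and of its neighbour can be read side by side. They were read from the RefSeq genome TAIR10.1 and are written 5′ to 3′ on the strand of the gene. Capitals mark TATAAA (the core of the TATA box), TGGGCC (the site II element) and TTGAC (the core of the W box) on either strand.
*PIP2B*, member, chr2:15615023-15615272, minus strand: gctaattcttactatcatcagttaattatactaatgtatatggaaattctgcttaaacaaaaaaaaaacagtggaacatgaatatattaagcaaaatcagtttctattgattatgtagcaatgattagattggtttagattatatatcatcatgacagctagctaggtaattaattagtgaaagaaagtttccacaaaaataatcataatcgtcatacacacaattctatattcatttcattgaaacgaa
*RD28*, outside, chr2:15617385-15617634, plus strand: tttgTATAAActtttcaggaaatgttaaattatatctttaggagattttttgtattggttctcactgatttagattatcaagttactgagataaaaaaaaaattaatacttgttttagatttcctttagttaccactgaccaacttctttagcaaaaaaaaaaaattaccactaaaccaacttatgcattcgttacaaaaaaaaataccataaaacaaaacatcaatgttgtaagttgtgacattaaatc
*SERK4*, member, chr2:5741342-5741591, plus strand: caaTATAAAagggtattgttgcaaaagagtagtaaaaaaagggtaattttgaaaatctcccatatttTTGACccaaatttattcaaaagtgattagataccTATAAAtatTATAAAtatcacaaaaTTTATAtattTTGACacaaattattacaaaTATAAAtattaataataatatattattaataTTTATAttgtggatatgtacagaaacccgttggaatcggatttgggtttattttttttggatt
*SERK5*, outside, chr2:5752853-5753102, plus strand: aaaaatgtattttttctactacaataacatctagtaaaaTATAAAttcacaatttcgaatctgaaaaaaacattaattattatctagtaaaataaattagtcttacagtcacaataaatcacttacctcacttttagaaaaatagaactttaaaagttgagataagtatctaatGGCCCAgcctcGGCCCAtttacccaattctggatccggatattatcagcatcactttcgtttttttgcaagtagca
*CYP76C1*, member, chr2:18778677-18778926, minus strand: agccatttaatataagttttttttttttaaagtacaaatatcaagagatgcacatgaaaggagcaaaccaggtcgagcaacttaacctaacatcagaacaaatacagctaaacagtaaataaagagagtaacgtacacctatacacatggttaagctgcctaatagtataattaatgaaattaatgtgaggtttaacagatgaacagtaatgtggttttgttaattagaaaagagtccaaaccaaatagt
*CYP76C2*, outside, chr2:18781974-18782223, minus strand: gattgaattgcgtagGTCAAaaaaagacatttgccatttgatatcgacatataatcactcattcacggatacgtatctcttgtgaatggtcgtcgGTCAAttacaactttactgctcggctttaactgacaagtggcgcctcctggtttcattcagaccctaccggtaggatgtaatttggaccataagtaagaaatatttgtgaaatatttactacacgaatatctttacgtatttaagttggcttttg

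*PIP2B* and *RD28* encode plasma membrane aquaporins, are 93.0% identical over 1192 aligned bp and stand head to head. *PIP2B* had 179, 213 and 216 CPM in *flpl1* and 259, 114 and 173 CPM in Col-0. *RD28* had 35.4, 44.7 and 33.5 CPM in *flpl1* and 14.6, 7.08 and 12.7 CPM in Col-0. The *flpl1* plants lay inside the Col-0 range for *PIP2B* (ratio 1.11) and above every Col-0 plant for *RD28* (ratio 3.30). The *PIP2B* window held none of the 6 motifs that were searched, and the *RD28* window held a TATAAA 246 bases before the start. *SERK4* and *SERK5* encode leucine-rich repeat receptor kinases, with 89.0% identity over 1869 bp. *SERK4* had 38.4, 60.5 and 82.3 CPM in *flpl1* and 80.2, 45.3 and 44.6 CPM in Col-0. *SERK5* had 15.1, 14.7 and 15.1 CPM in *flpl1* and 16.8, 19.1 and 18.0 CPM in Col-0. *SERK4* spread widely in both groups around a ratio of 1.07, while *SERK5*, with a ratio of 0.834, lay just under the window and was lower in every *flpl1* plant than in any Col-0 plant. The *SERK4* window held 6 TATAAA and 2 TTGAC matches, and the *SERK5* window held 1 TATAAA and 2 TGGGCC matches, 76 and 65 bases before the start. *CYP76C1* and *CYP76C2* encode cytochrome P450 enzymes of the CYP76C family, with 87.8% identity over 617 bp. *CYP76C1* had 122, 87.1 and 68.1 CPM in *flpl1* and 115, 87.1 and 85 CPM in Col-0. *CYP76C2* had 0.103, 0 and 0.339 CPM in *flpl1* and 1.88, 2.12 and 14.0 CPM in Col-0, so that its Col-0 mean rested mostly on plant 3. The *CYP76C1* window held none of the motifs, and the *CYP76C2* window held 2 TTGAC matches. The authors' handling of reads that fit several genes is not stated, so values of such relatives are uncertain to the extent that reads were shared.

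**Figure D1:**
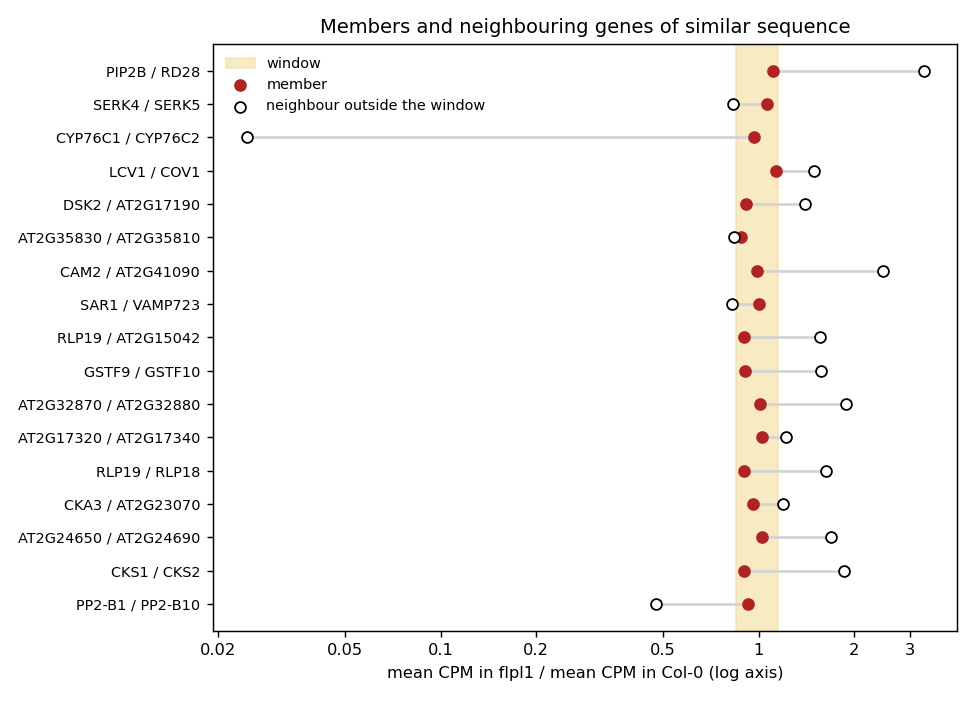
Ratio of the mean CPM in *flpl1* to the mean CPM in Col-0 (log axis) for the 17 pairs of a member (filled) and a similar neighbouring gene outside the window (open), ordered by identity from 93.0% at the top to 66.3% at the bottom. In 12 pairs the neighbour lay above the shaded window of 0.85 to 1.15, and in 5 pairs below it; the share above was 70.6%, and 70.8% over all expressed Chr. 2 genes outside the window.

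Among the other pairs, the member *CKS1* and its neighbour *CKS2*, which encode cyclin-dependent kinase subunits, had ratios of 0.90 and 1.85 at 66.8% identity. *CKS2* had 12.7, 9.07 and 7.90 CPM in *flpl1* and 3.13, 6.47 and 6.42 CPM in Col-0. Its Col-0 mean of 5.34 CPM was close to the minimum of 5. The glutathione transferase genes *GSTF9* and *GSTF10* had ratios of 0.908 and 1.57. *GSTF10* had 345, 475 and 445 CPM in *flpl1* and 309, 260 and 235 CPM in Col-0, with the *flpl1* plants above the Col-0 plants. Over all members, TATAAA occurred in 45.3% of the windows of 250 bases, against 47.4% in the other expressed Chr. 2 genes and 45.1% on the other 4 chromosomes. TTGAC occurred in 42.5% of the members, against 42.6% and 44.2%, and TGGGCC in 17.3%, against 18.2% and 18.8%. CACGTG (the G-box) was found in 7.85%, against 6.68% and 7.63%, AAACCCTA (a telo-box) in 3.0%, against 3.81% and 3.74%, and AAAATATC (the core of the evening element) in 5.54%, against 6.09% and 6.27%. The shares of the members differed by less than 3 percentage points from those of the other genes, and the rarer motifs rested on 13 to 34 members.

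A ratio near 1 on the scale of the rule was not the typical ratio of a gene on the chromosomes without an additional copy. On that scale the median ratio was 1.26 over the 2140 Chr. 2 genes and 0.813 over the 12154 genes of the other 4 chromosomes with the same minimum, a quotient of 1.56. Of the 12154 genes, 53.2% lay below the window. Against their median the window ran from 1.05 to 1.42, and the median ratio of the members, 1.0 on the scale of the rule, was 1.24. When each library was scaled so that the median gene of the other 4 chromosomes had a ratio of 1, the members ranged from 1.04 to 1.43, and 124 of the 433 (28.6%) remained within 0.85 to 1.15. On that scale 303 Chr. 2 genes lay in the window, of which 40.9% were members. The sum behind the CPM was itself higher in *flpl1* in a few leaf genes: the 10 genes of the other 4 chromosomes whose share gained most, led by *RBCS1A* (a Rubisco small subunit) and *CAB1* (a chlorophyll-binding protein), took 10.6%, 10.7% and 9.85% of it in *flpl1* and 6.97%, 2.77% and 3.77% in Col-0. The part of these genes in the choice of members was measured by leaving them out of the sum, which gave 392 members, 330 of them shared with the 433. The median ratio of the other 4 chromosomes was then 0.868, still under 1. With all genes in the sum it was 0.842 at a minimum of 1 CPM and 0.757 at a minimum of 20 CPM.

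On the scale of the rule, a window of 0.85 to 1.15 also held 2321 genes (19.1%) of the other 4 chromosomes, a share close to the 20.2% of Chr. 2. When the ratios of those genes were compared with the window divided by 1.5, so that a proportional rise with copy number would bring them into it, the share was 21.0%. The interquartile range of the log2 ratio was 1.09 on Chr. 2 and 1.09 on the other chromosomes. The share of members on Chr. 2 lay between 19.1% and 21.0%. This closeness depended on the setting. With the median gene of the other 4 chromosomes set to 1, the window held 14.2% of the Chr. 2 genes and 22.4% of the others. With a minimum of 20 CPM on the scale of the rule, it held 23.3% and 18.2%. These counts are descriptions and were not tested, because the window was set on the same contrast.

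**Figure D2:**
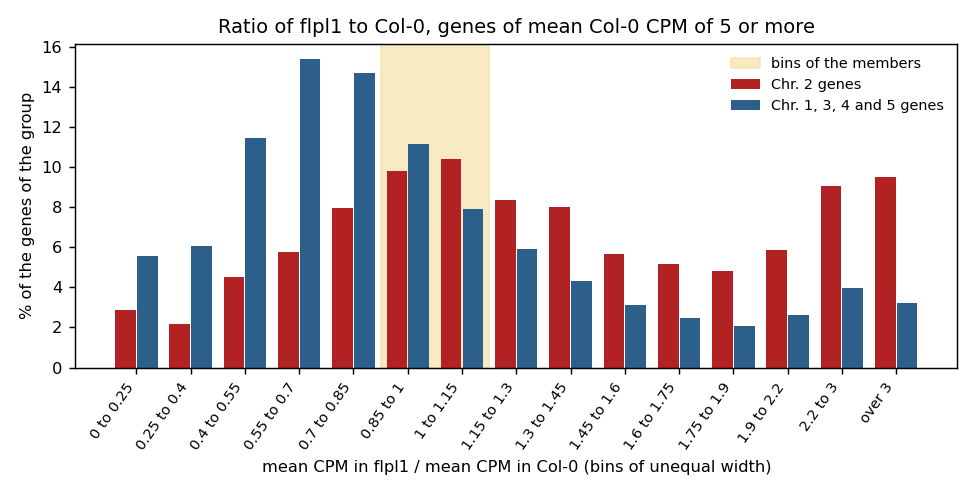
Share of expressed genes (y axis, in % of the 2140 Chr. 2 genes or of the 12154 genes of the other 4 chromosomes) by the ratio of mean CPM in *flpl1* to mean CPM in Col-0 (x axis, bins of unequal width). The 2 shaded bins hold the members, 210 with a ratio under 1 and 223 from 1, and the Chr. 2 genes as a whole are shifted to higher ratios.

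The members nearest the limits differed little from the genes left out. Just inside the lower limit lay *IAA13*, an auxin response repressor (0.85005), *LUH*, a transcriptional corepressor (0.8514), and *APK*, an adenosine-5′-phosphosulfate kinase (0.8515), and just outside it *AT2G36950* (0.8496), *AT2G03500* (0.8489) and *BAG6* (0.8479). At the upper limit *AT2G33855* (1.1489), *AT2G25310* (1.147) and *AT2G37975* (1.1463) were inside, and *COPT6*, a copper transporter gene (1.1501), *AT2G44140* (1.1515) and *PTI1-4*, a kinase gene (1.1517), outside. By level, *HSP70T-2*, *KCS13* and *PNP-A* were the lowest members with 5.60, 6.54 and 6.77 CPM in Col-0, and *AT2G24250*, *AT2G38430* and *AT2G37195* with 4.82, 4.73 and 4.69 CPM were left out. *KCS13* shares 802 bp at 99.4% identity with *AT3G10280* on Chr. 3, so its counts are uncertain. *IAA13* overlaps a gene of the opposite strand by 1176 bp and shares 324 bp with a near-identical copy.

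Single plants often lay outside the window of 0.85 to 1.15 times the Col-0 mean. In 166 members each of the 3 *flpl1* plants was inside 0.85 to 1.15 times the Col-0 mean, in 191 members 2 plants, in 70 members 1 plant and in 6 members none. In 230 members at least 1 Col-0 plant was itself outside 0.85 to 1.15 times the Col-0 mean. Col-0 plant 1 was outside in 181 members (41.8%) and was the lowest Col-0 plant in 314, and *flpl1* plant 3 was the highest *flpl1* plant in 284. The highest of the 6 libraries was less than 1.5 times the lowest in 306 members (70.7%) and more than 2 times the lowest in 24. The median SD of log2 CPM among plants was 0.13 in *flpl1* and 0.21 in Col-0 for the members, and 0.16 in *flpl1* and 0.22 in Col-0 for the other expressed Chr. 2 genes.

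In 416 members the *flpl1* and Col-0 plants overlapped, and in 17 they did not, 10 with all *flpl1* plants above and 7 with all below. Over the 14319 genes with a mean Col-0 CPM of at least 5, 67.4% did not overlap, 26.2% with *flpl1* above and 41.2% with *flpl1* below. That minimum was set on Col-0 alone and the plants were compared on the scale of the rule. The edgeR shares below used TMM and filterByExpr, so the balance of higher and lower genes cannot be compared between them. With edgeR's quasi-likelihood test, 0 of the 433 members had an adjusted p under 0.05 (5 at an unadjusted p under 0.05), and with DESeq2 0 (2 unadjusted), against 30.9% of all tested genes higher and 30.7% lower in *flpl1* by edgeR. With a fold change of at least 2 in addition, 19.8% were higher and 14.4% lower. The rule fixed these counts of the members, and nothing follows from them about the single genes. The standard error of the log2 ratio had a median of 0.16 in the members.

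The members with the highest levels had various roles. *RCA*, which encodes Rubisco activase and was the highest by FPKM (the authors' level per exon length and library total), had 14975, 13285 and 15349 CPM in *flpl1* and 12997, 12085 and 13407 CPM in Col-0. Its log2 ratio was 0.18 ± 0.20 (SE), and the plants of the groups overlapped narrowly. *VAR2*, a metalloprotease of the thylakoid membrane that takes part in photosystem repair, had 1316, 1478 and 1267 CPM in *flpl1* and 1485, 1547 and 1691 CPM in Col-0, so that all *flpl1* plants were lower. *PPC2*, a phosphoenolpyruvate carboxylase, had 1073, 1213 and 1039 CPM in *flpl1* and 921, 1203 and 1046 CPM in Col-0. *GLDP2*, a subunit of the glycine decarboxylase of photorespiration, had 649, 915 and 868 CPM in *flpl1* and 784, 826 and 1141 CPM in Col-0. For *PPC2* and *GLDP2* the ranges overlapped broadly. *GSTF9*, a glutathione transferase, had 1144, 1265 and 1171 CPM in *flpl1* and 1258, 1442 and 1244 CPM in Col-0. *GPX1*, a chloroplast glutathione peroxidase, had 691, 602 and 636 CPM in *flpl1* and 919, 395 and 505 CPM in Col-0. The *GPX1* mean of Col-0 (606 ± 276, SD, n = 3) was carried by plant 1, and the *flpl1* plants lay between the Col-0 plants.

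*HA1*, the plasma membrane proton pump AHA1, had 892, 1029 and 1062 CPM in *flpl1* and 756, 1050 and 1067 CPM in Col-0. *APK*, the kinase that makes activated sulfate, had 313, 353 and 416 CPM in *flpl1* and 346, 478 and 447 CPM in Col-0. *CXIP4*, which interacts with a vacuolar cation exchanger, had 488, 442 and 559 CPM in *flpl1* and 569, 552 and 536 CPM in Col-0. All 3 genes overlapped between the groups, and on the median scale their ratios were 1.28 for *HA1*, 1.05 for *APK* and 1.1 for *CXIP4*. *COR413-PM1*, a cold-regulated membrane protein, had 280, 272 and 250 CPM in *flpl1* and 347, 244 and 254 CPM in Col-0. *AT2G23120* had 215, 279 and 194 CPM in *flpl1* and 325, 152 and 210 CPM in Col-0, and *AT2G32870* had 373, 477 and 687 CPM in *flpl1* and 541, 523 and 460 CPM in Col-0. For *AT2G23120* the Col-0 plants spread more than the *flpl1* plants, and for *AT2G32870* the *flpl1* plants spread more. *PPC2* shares 135 bp with a near-identical copy on Chr. 3, and *VAR2* overlaps a gene of the opposite strand by 45 bp. In all, 346 members had neither an overlapping gene nor a near-identical copy.

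**Figure D3:**
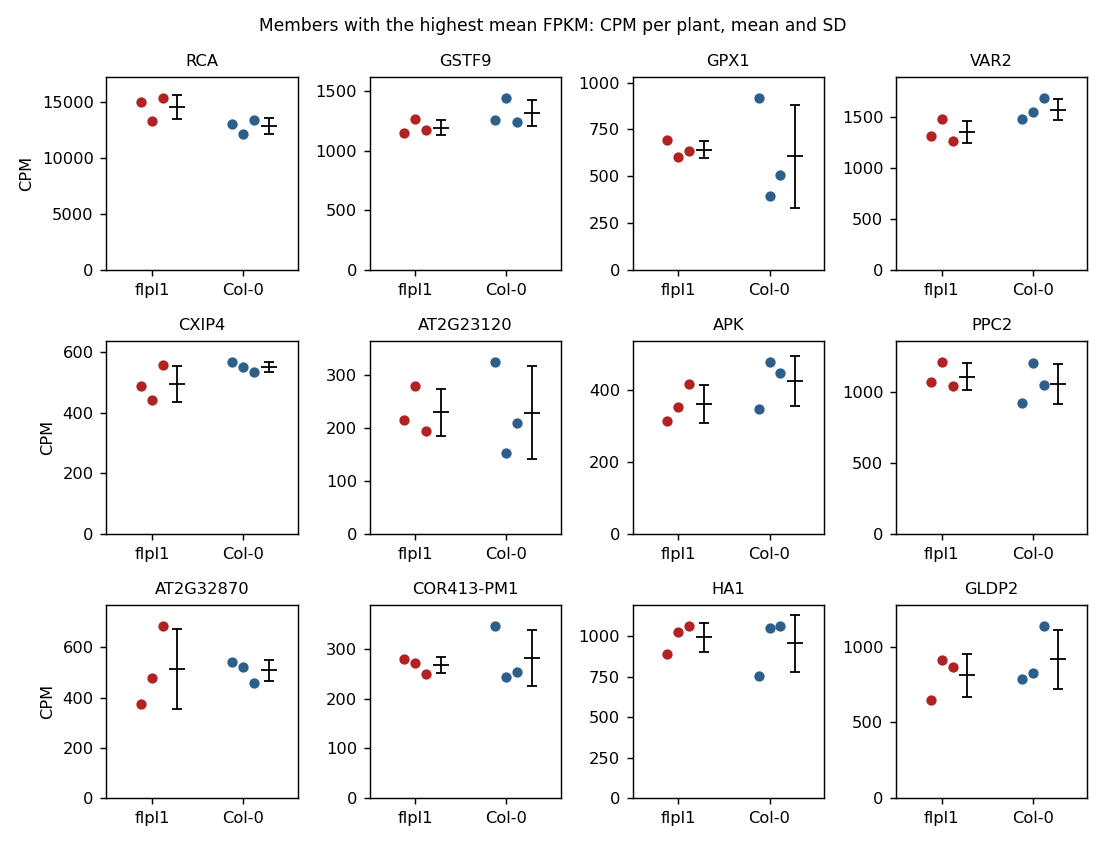
CPM of the 12 members with the highest mean FPKM in each *flpl1* plant (left, red) and each Col-0 plant (right, blue), with the mean and SD of the 3 plants beside the points; each y axis starts at 0. The Col-0 points of *GPX1* spread from 395 to 919 CPM, and its *flpl1* points lie between them.

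Members were found in 18 of 20 lists of genes taken from the GO terms of the deposited tables. In every list the median ratio of the Chr. 2 genes was above that of the genes on the other 4 chromosomes, by a quotient of 1.27 to 1.80. The median of the Chr. 2 genes fell inside the window in 7 lists, and in each of these 7 the median of the other chromosomes was below 0.85. The lists overlap, and 277 of the members were in none. All shares are read against the 20.2% of all expressed Chr. 2 genes, and no list was tested.

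The ribosome list had 1 member among 45 Chr. 2 genes and the other 44 were above the window, with a median ratio of 3.83 on Chr. 2 and 2.37 on the other chromosomes. The member was *PAA2*, which encodes a subunit of the 20S proteasome and not a ribosomal protein. The lists of mitochondrial respiration (13 genes) and of translation factors (9 genes) had no member, and all their Chr. 2 genes lay above the window, with medians of 1.83 and 1.76 on Chr. 2 and 1.02 and 1.08 elsewhere. The photosynthesis list had 1 member of 23, *VAR2*, with medians of 2.16 and 1.37. The thylakoid list had 8 members of 70 (11.4%), among them *RCA*, *GSTF9*, *GPX1* and *VAR2*. Protein folding had 1 member of 26, *HSP70T-2*, with 4.35, 4.85 and 6.6 CPM in *flpl1* and 6.16, 5.06 and 5.57 CPM in Col-0.

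For several regulatory lists the share of the same list on the other 4 chromosomes was read in the window divided by 1.5. That share was 31.8% for the ubiquitin list, 38.5% for the proteasome list and 22.9% for the kinase list. For the splicing list it was 28.0% and for the transcription factor list 19.2%. In the window itself these lists had 15.5%, 16.5%, 15.5%, 25.6% and 15.4% on the other chromosomes, in the same order. In some other lists the share of members was well below the divided share. It was 20.7% against 29.7% for chromatin and histones, 15.9% against 25.2% for auxin and 3.85% against 19.9% for protein folding. The part of copy number in these shares was not tested. The ubiquitin list had 28 members of 103 (27.2%), with medians of 1.06 on Chr. 2 and 0.693 elsewhere, and the proteasome list 4 of 11 (36.4%). *COP1*, the ubiquitin ligase that represses light responses, had 75.2, 71.9 and 75.6 CPM in *flpl1* and 57.6, 68.5 and 76.3 CPM in Col-0. *PAA2* had 103, 107 and 112 CPM in *flpl1* and 95.5, 126 and 147 CPM in Col-0. *RPN13*, a ubiquitin receptor of the proteasome, had 44.9, 39.6 and 45.9 CPM in *flpl1* and 33.9, 41.4 and 45.9 CPM in Col-0. In these 3 genes the *flpl1* plants were closer together than the Col-0 plants. The ubiquitin-conjugating enzyme gene *UBC29* (0.913), the separate enzyme variant gene *MMZ3* (1.06) and the ligase gene *MAC3B* (1.06), which also belongs to a spliceosome-associated complex, were further members. On the median scale 11 of the 28 were still in the window.

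The kinase list had 18 members of 69 (26.1%), with medians of 1.02 and 0.751. *MPK6*, a mitogen-activated kinase of stress and developmental signalling, had 59.7, 60.1 and 67.6 CPM in *flpl1* and 63.0, 68.8 and 70.1 CPM in Col-0. *SOBIR1*, a receptor kinase that partners with receptor-like proteins in defense, had 65.2, 99.3 and 127 CPM in *flpl1* and 135, 87.5 and 104 CPM in Col-0. *MPK6* varied little and *SOBIR1* about 2-fold, and both overlap a gene of the opposite strand, by 45 and 478 bp. The splicing list had 11 members of 35 (31.4%), including the snRNP protein gene *U2B''* (1.08) and the SR protein gene *RS2Z33* (1.13). *U2B''* had 40.9, 39.8 and 42.4 CPM in *flpl1* and 35.8, 39.8 and 38.0 CPM in Col-0. Only 1 of the 11 splicing members remained in the window on the median scale.

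The transcription factor list had 30 members of 126 (23.8%), with medians of 1.04 on Chr. 2 and 0.627 elsewhere. *SVP*, a MADS-box repressor of flowering, had 256, 279 and 340 CPM in *flpl1* and 269, 327 and 354 CPM in Col-0. *RGA1*, the DELLA repressor of gibberellin responses, had 118, 125 and 134 CPM in *flpl1* and 113, 163 and 122 CPM in Col-0. *STH*, a B-box protein of light signalling, had 99.4, 93.3 and 108 CPM in *flpl1* and 107, 99.0 and 103 CPM in Col-0. The *flpl1* and Col-0 plants overlapped in each of these 3 genes. Of the Chr. 2 regulators that the study lists as important, the flowering repressor gene *SNZ* (4.36) and the receptor kinase gene *ER* (3.04) lay above the window. The floral activator gene *AGL20* (0.243) and the leaf patterning gene *BOP2* (0.407) lay below it. The genes *CLF* (5.96) and *PIL1* (2.54) were higher in *flpl1* but missed the CPM minimum, with 4.56 and 0.538 CPM in Col-0.

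Among the other lists, vesicle traffic had 17 members of 70 (24.3%), among them the small GTPase gene *ARF1A1C* (1.09), the clathrin light chain gene *CLC2* (1.07) and the vesicle SNARE gene *SAR1* (1.01). *SAR1* had 103, 117 and 120 CPM in *flpl1* and 107, 116 and 116 CPM in Col-0. Defense had 26 of 127 (20.5%), with *PEN2*, a thioglucosidase of preinvasion resistance, at 311, 292 and 376 CPM in *flpl1* and 356, 395 and 336 CPM in Col-0. *SSI2*, a stearoyl-acyl carrier protein desaturase of the same list, had 290, 275 and 299 CPM in *flpl1* and 235, 284 and 285 CPM in Col-0. Both genes overlapped between the groups. Chromatin and histones had 12 of 58 (20.7%), including the chromatin remodeller gene *CHR5* (0.899) and the cohesin subunit gene *SCC3* (0.916). Abscisic acid had 15 of 67 (22.4%), DNA repair and replication 6 of 24 (25%), cell wall 13 of 78 (16.7%), auxin 7 of 44 (15.9%), transmembrane transport 13 of 86 (15.1%), and oxidative stress and glutathione 5 of 39 (12.8%). With 24 to 86 genes per list these shares rest on few genes each.

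**Figure D4:**
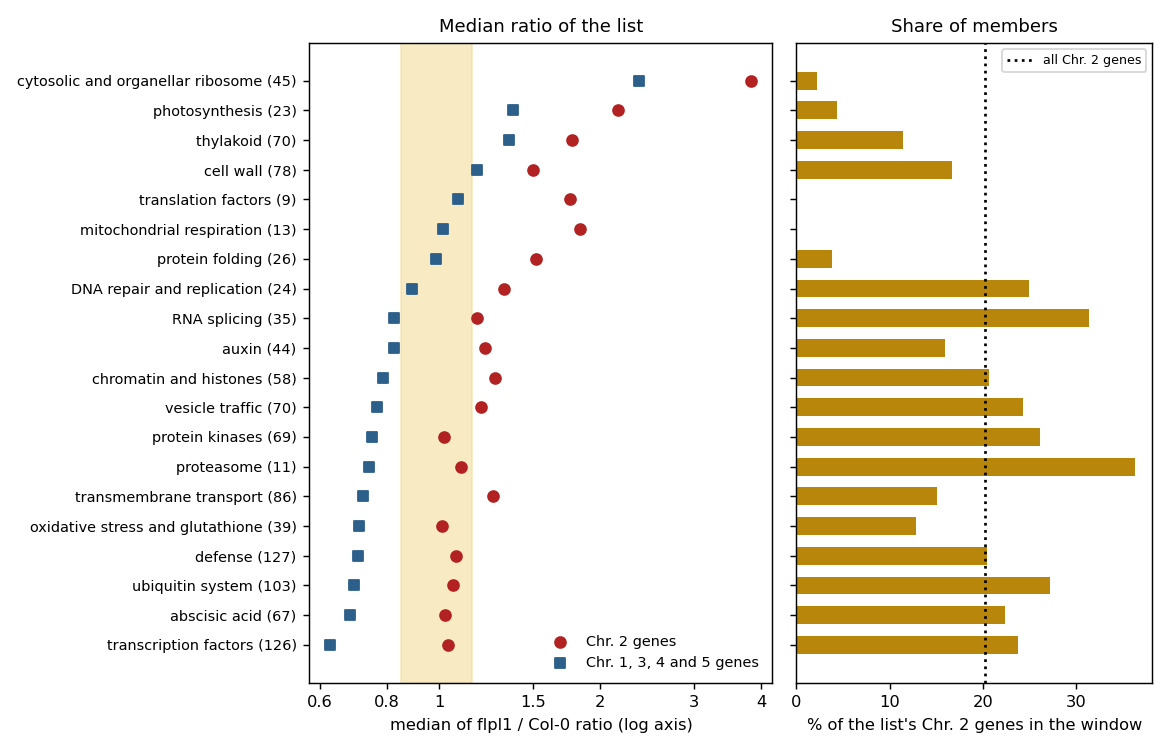
Left, median ratio of *flpl1* to Col-0 (log axis) of the Chr. 2 genes (red circles) and of the genes of the other 4 chromosomes (blue squares) of 20 GO lists, with the number of expressed Chr. 2 genes in parentheses and the window of 0.85 to 1.15 shaded; right, share of the list's Chr. 2 genes that were members, with the 20.2% of all expressed Chr. 2 genes as a dotted line. The red circle is right of the blue square in each list, and the lists without a member have Chr. 2 medians of 1.76 and 1.83.

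The steadiest members, picked for the smallest SD of log2 CPM over all 6 plants, kept nearly the same value on the scale of the rule. *AT2G34310* had 93.3, 92.9 and 90.3 CPM in *flpl1* and 91.4, 91.7 and 93.2 CPM in Col-0. *emb1513*, a gene required for embryo development, had 37.0, 39.1 and 37.0 CPM in *flpl1* and 36.6, 39.2 and 38.2 CPM in Col-0. *AP19*, a small subunit of a clathrin adaptor, had 31.1, 29.6 and 33.4 CPM in *flpl1* and 29.7, 31.6 and 30.5 CPM in Col-0. *AT2G31370* and *AT2G02570* completed the 5 steadiest, and *emb1513* overlaps a gene of the opposite strand by 518 bp. At the other end, *AT2G16890* had 9.26, 10.1 and 7.67 CPM in *flpl1* and 2.36, 8.85 and 14.2 CPM in Col-0. *PNP-A*, a natriuretic peptide-like protein gene, had 5.59, 7.65 and 4.85 CPM in *flpl1* and 11.7, 2.48 and 6.18 CPM in Col-0. *AT2G25200* had 14.2, 25.2 and 26.5 CPM in *flpl1* and 32.6, 12.1 and 13.4 CPM in Col-0. *SERK4* and *TCP9*, a TCP family transcription factor gene, were the others of the 5 most variable members, and in such genes a ratio near 1 was an average of plants far apart. The log2 ratio was 0.10 ± 0.52 (SE) for *AT2G16890* and 0.00 ± 0.12 (SE) for *AT2G34310*. With library sizes and TMM from Chr. 1, 3, 4 and 5, the log2 ratio was 0.17 for *AT2G34310*, 0.20 for *AP19* and 0.26 for *AT2G31370*.

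The members were spread over the whole of Chr. 2. In windows of 1 Mb with at least 20 expressed genes their share ran from 15.8% to 25.9%. They made up 142 of 722 genes (19.7%) before and 290 of 1417 genes (20.5%) after *LYK4* (*AT2G23770*), the gene at the Chr. 2 breakpoint of the study's model. *LYK4*, a receptor-like kinase gene of chitin signalling, was itself a member, with 6.47, 9.76 and 11.7 CPM in *flpl1* and 12, 9.51 and 5.82 CPM in Col-0. Its plants spread about 2-fold in both groups, and reads from an intact and from a broken copy of the gene were counted together. A member was followed by another member among the expressed genes in 19.9% of cases, against 20.3% for the other Chr. 2 genes.

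**Figure D5:**
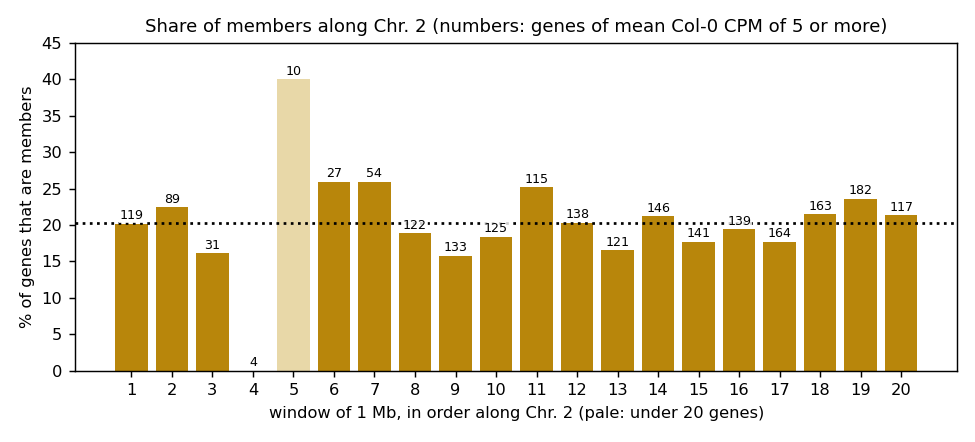
Share of the expressed Chr. 2 genes that were members (y axis, %) in successive windows of 1 Mb (x axis), with the number of expressed genes above each bar and the share of 20.2% over the chromosome as a dotted line. Windows with at least 20 genes lie between 15.8% and 25.9%; the pale bar and the empty window beside it hold 10 and 4 genes.

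Single members made up 276 of the runs of neighbouring expressed genes, and there were 59 runs of 2, 9 of 3 and 3 of 4 members. The first run of 4 held *AT2G01440* (0.922), the mitogen-activated kinase gene *MPK17* (1.01), *AT2G01460* (0.897) and *STL2P* (0.889). It was bordered on one side by *PIN4*, an auxin efflux carrier gene with a ratio of 4.39, and on the other by *AT2G01480* (1.17). *MPK17* had 116, 132 and 130 CPM in *flpl1* and 140, 122 and 112 CPM in Col-0, and overlapped between the groups. The second run held *COR413-PM1*, *AT2G15980*, *AT2G16050* and *PDV2*, a chloroplast division gene (0.976), and the third *AT2G25970*, the ubiquitin ligase gene *BRIZ2* (0.954), *AT2G26030* and *emb1345* (1.1). Members shared few other features: 98.6% were protein coding, against 98.5% of the other expressed Chr. 2 genes, the median exonic length was 1648 bp, against 1566 bp, and the median FPKM in Col-0 was 20.2, against 16.8.

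The libraries held 20049387 to 24081121 counts in *flpl1* and 19465078 to 24633070 in Col-0, and the member with the fewest counts in a library had 74 in *flpl1* and 49 in Col-0. Chr. 2 took at least 19.6% of the nuclear counts in each *flpl1* library and at most 15.6% in each Col-0 library. The members took 3.75% to 4.07% in *flpl1* and 3.77% to 4.11% in Col-0, a near equality that follows from the rule that chose them. The scaled values are shares of the sequenced RNA, and a change in the RNA per cell cannot be seen in them. The leaf label held against its markers: the 5 mesophyll genes had an FPKM of at least 770 in every library, and the 5 root and 3 seed storage genes were between 0 and 0.06. Of the pollen and floral genes, *VGD1* had 0 to 0.94 FPKM in *flpl1* and 3.87 to 9.98 in Col-0, *PI* 0 to 0.05 in *flpl1* and 1.02 to 6.08 in Col-0, and *AG* 2.28 to 2.75 in *flpl1* and 1.05 to 1.18 in Col-0. *VGDH1* had 0 to 0.5 FPKM in *flpl1* and 1.34 to 3.79 in Col-0. *AP3* had 0.04 to 0.38 in *flpl1* and 0 to 0.12 in Col-0, and *AP1* had 0 in every library. The part of these differences in the results was not tested.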

How the data were processed

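Leaves of 3 *flpl1* and 3 Col-0 plants were sequenced as paired reads. The authors trimmed the reads with Cutadapt 1.9.1, used Hisat2 for alignment to TAIR10 and HTSeq 0.6.1 for counting on genes; the deposited counts are raw. The authors' FPKM is the count divided by the exonic gene size (the deposited size in bp) and the total count, and 100% of the values were within 0.01 of that. The annotation version, strand use and treatment of reads that fit several genes are not given in the sources used here.

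Groups followed the labels. The members and the lists were chosen with earlier results of these data known, and the counts of members called by the fits over all genes are a description, since the rule used the same contrast. CPM used the sum over Chr. 1, 3, 4 and 5. The counts over all genes came from edgeR 4.0.16 (quasi-likelihood test, TMM, filterByExpr, Benjamini-Hochberg over 18638 genes) and DESeq2 1.42.0 in R 4.3.3; the printed log2 ratios and standard errors came from the same edgeR model with library sizes from that sum, which was added after the data were seen. The edgeR script was tested on simulated data. Named were the 12 members of the highest FPKM, up to 4 per GO list, the genes nearest the limits, the 5 steadiest and 5 most variable, the longest runs, the 3 most similar neighbour pairs and members the study names; *CKS2*, *GSTF10* and *RBCS1A* were chosen after their values were seen. Pairs had been planned on protein identity and used BLAST 2.17.0 on nucleotides, and 1 neighbouring gene is not reported here. Symbols and promoters came from RefSeq TAIR10.1 (432 of 433 members matched), and 99.8% of 3903 pseudogenes had the positions of the tables; where the gene starts differed, the more upstream was used. With 3 plants per group the spread between plants set the precision. Alternatives were other scalings, windows, CPM minimums, a ratio of medians, a replicate block, and each library left out.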

Additional observations from a re-analysis of the deposited data

How the results depend on the processing

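The number of members was 433 (20.2% of the expressed Chr. 2 genes) and stayed within 1.5 times of that under each alternative run, but the genes changed more than the number. TMM and DESeq2 factors each gave 395 members, 353 of them among the 433, the sum over all genes gave 445 (367 shared), the ratio of medians 414 (346 shared), and the median gene of the other 4 chromosomes set to 1 gave 303 (124 shared). Minimums of 1 and 20 CPM gave 468 and 335, a minimum on the mean of all libraries 434, and windows of 0.9 to 1.1 and 0.8 to 1.2 gave 290 and 554. Leaving out each library in turn gave 412 to 448 members, with 337 to 392 shared, and 196 of the 433 (45.3%) were members in each of these 6 cases. The log2 ratios of 62 named members in the edgeR fit with TMM were compared with 12 other fits, among them the one behind the printed log2 ratios. Of the 744 values, 727 lay within 1 SD of the TMM value, while 17 moved by more. The SD was the larger of the gene's SDs of log2 CPM among the plants of a group, so variable genes moved less easily. The printed 0.00 of *AT2G34310* was among the values that moved, against 0.07 with TMM.

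The replicate numbers did not pair the plants: the deviations of same-numbered *flpl1* and Col-0 plants had correlations of 0.02, -0.11 and 0.09. With the replicate number as a block, edgeR called 3659 genes higher and 2624 lower at a fold change of at least 2, against 3698 and 2679 without it, and the other fits, with each library left out among them, stayed within 1.5 times of these counts. Single plants of a group often lay outside the window, so membership of single genes near its limits is not settled by these libraries.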
